A study of Mus musculus with 30 samples.

Results

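The genes described here mark the production of new neurons in the adult hippocampus: Dcx, Sox11, Sox4, Igfbpl1, Eomes, Mki67, Top2a, Neurod1 and Draxin. They are a list of 9 symbols, taken from knowledge of the lineage and not by a threshold on the counts, but with earlier results of these data known. All 9 were found among the 17477 genes of the table. Draxin was found under its older symbol, 2610109H07Rik. Gene expression was measured by RNA-seq of polyA-selected RNA from frozen hippocampus of adult C57 BL/6J mice, 1 library per mouse. Mice under social isolation (SI) were housed singly from weaning into adulthood, and group-housed (GH) mice shared cages over the same period. The females comprised 8 SI and 7 GH mice and the males 7 SI and 8 GH mice. The labels name no transgene and no drug treatment. Which GH mice shared a cage is not given in the sources used here, so cage mates may be among the replicates of a GH group. The males carry animal numbers from 1 to 39 and the females from 41 to 79, so sex and the order of numbering cannot be told apart.

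New granule cells of the dentate gyrus descend from radial glia-like stem cells that lie below the granule cell layer. These stem cells give rise to dividing intermediate progenitors, which become neuroblasts and then immature neurons that extend an axon and dendrites before they join the granule cell layer. Each stage has its own genes: kinases, replication and mitosis genes during division, basic helix-loop-helix and Sox transcription factors at neuronal commitment, and cytoskeleton and guidance genes as the young neuron grows. Such cells are a small part of the adult hippocampus, and whole-tissue RNA dilutes them. In bulk tissue, fewer cells of a type and less RNA per cell cannot be told apart.

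None of the 9 genes passed the test between SI and GH mice in either sex. In females the genes were tested among 16026 and in males among 15833, and all 9 passed the filter on low counts in both. With edgeR's quasi-likelihood test and Benjamini-Hochberg adjustment over all genes tested, 0 of 9 were called in females, where 3.89% of all genes were, and 0 of 9 in males, where 0% were. At an unadjusted p under 0.05 the counts were also 0 of 9 in each sex, against 20.2% of all genes in females and 13% in males. The DESeq2 test, which called 1263 genes in females and 44 in males, gave an adjusted p for 5 of the 9 genes in each sex and called 0 of those 5. For Eomes, Mki67, Top2a and Draxin it gave only unadjusted p-values, from 0.374 to 0.81 in females and from 0.0707 to 0.382 in males. The levels of SI and GH mice overlapped for all 9 genes in both sexes, as they did for all but 0.324% of the genes tested in females and 0.0758% in males. The test of whether the SI effect differed between females and males called 0 of 9, and 0% of 16391 genes, and at an unadjusted p under 0.05 it held 0 of 9, against 7.49% of all genes. The smallest adjusted p among the 9 genes was 0.267 in females (Neurod1) and 0.394 in males (Sox4). These p-values say only that no difference passed, and the confidence intervals of each gene give the sizes that the data still allow.

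Library totals ranged from 18809307 to 100844898 counts, with a median of 41297502. Levels are given as CPM, counts relative to the library total scaled by edgeR's TMM factors, and they are not adjusted for surrogate variables, whereas each Log2FC is SI relative to GH from the fit with surrogate variables, 3 in females and 2 in males. A Log2FC can therefore differ from the ratio of the medians. Among the males, the libraries of SI animals 25, 33 and 39 stood apart from the rest. In a principal component analysis of the males, the component with the most variance (49.9%) placed them at 109.1, 93.55 and 65.76, and the other 12 males from -40.41 to 0.07321. The values of the 9 genes in males are given below with all 15 mice and without these 3, and those of the gene lists likewise where they are described. Without the 3, 0 genes of the table were called in the 12 males left.

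**Figure D1:**
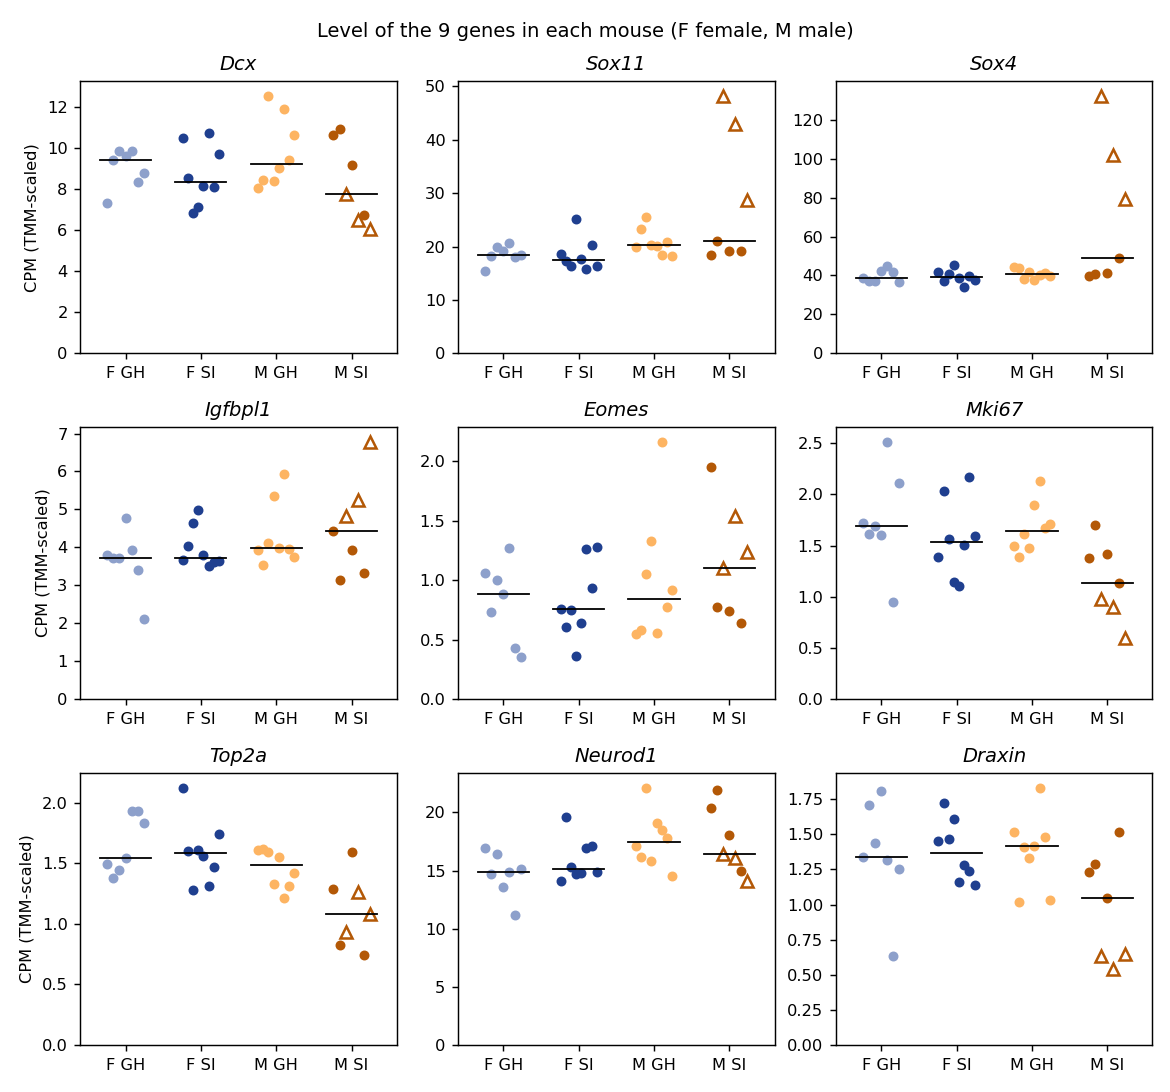
Level of each of the 9 genes in the 30 mice, 1 point per mouse, in TMM-scaled CPM on axes that start at 0, with F for females, M for males, and a line at the median of each group. Open triangles are SI males 25, 33 and 39, which hold the 3 highest levels of Sox4 and Sox11, while the other points of SI and GH mice overlap for every gene.

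Mki67 (ENSMUSG00000031004, chromosome 7) and Top2a (ENSMUSG00000020914, chromosome 11) mark cells in division. Mki67 encodes a protein that coats mitotic chromosomes and is present in cycling cells, and Top2a encodes the topoisomerase that untangles sister chromatids. Mki67 had between 11 and 212 counts per library and Top2a between 16 and 167, so their precision is limited by low counts as well as by the spread between mice. Promoters of such genes often hold CCAAT boxes and the TTTGAA element through which cell cycle complexes repress them outside division, and the bases before their start sites are shown for that reason, with both motifs in capitals on either strand. CCAAT reads as ATTGG on the opposite strand, while TTTGAA reads there as TTCAAA.
Mki67 chr7:135716380-135716529 (minus strand): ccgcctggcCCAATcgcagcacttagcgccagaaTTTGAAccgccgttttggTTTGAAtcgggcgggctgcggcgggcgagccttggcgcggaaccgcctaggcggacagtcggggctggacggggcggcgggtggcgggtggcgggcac
Top2a chr11:99024190-99024339 (minus strand): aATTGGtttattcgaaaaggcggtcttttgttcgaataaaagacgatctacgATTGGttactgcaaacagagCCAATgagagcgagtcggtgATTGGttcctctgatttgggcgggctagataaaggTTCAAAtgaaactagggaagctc
The sequences are the 150 bases before the annotated start site from RefSeq on GRCm38.p6, written 5′ to 3′ on the strand of the gene, and the table's own build is GRCm39 per the submitters' processing notes. The Mki67 window held 1 CCAAT and 2 TTTGAA motifs, and the Top2a window held 4 and 1. Among 32851 windows of the same length, 24.5% held a CCAAT on either strand, 9.07% a TTTGAA and 2.24% both. A match of letters is a description and not evidence of binding.

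In females, Mki67 ranged from 0.95 to 2.51 CPM in the GH mice (median 1.69) and from 1.11 to 2.17 CPM in the SI mice (median 1.53). All 8 SI females lay within the range of the GH females, whose lowest and highest animals were 78 and 71. The Log2FC was -0.13 ± 0.131 (SE; 95% confidence interval -0.402 to 0.152; adjusted p = 0.648, edgeR). In males, Mki67 ranged from 1.39 to 2.13 CPM under GH (median 1.64) and from 0.595 to 1.70 CPM under SI (median 1.13). The 5 SI males 39, 33, 25, 38 and 7 lay below the lowest GH male, and animals 27 and 8 lay within the GH range. The Log2FC was -0.31 ± 0.157 (SE; interval -0.643 to 0.0203; adjusted p = 0.398, edgeR), and -0.18 ± 0.146 without animals 25, 33 and 39. It was -0.51 without surrogate variables, -0.50 with the position digit of the sample label as a factor, and -0.19 either with length and GC trends removed or without SI animal 38. On the linear scale the interval with all 15 males runs from 0.641 to 1.01 times the GH level.

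Top2a in females ranged from 1.38 to 1.93 CPM under GH (median 1.54) and from 1.28 to 2.12 CPM under SI (median 1.58). Of the 8 SI females, animal 41 lay above the highest GH female and 2 lay below the lowest, and the Log2FC was -0.05 ± 0.136 (SE; interval -0.338 to 0.238; adjusted p = 0.884, edgeR). In males, Top2a ranged from 1.21 to 1.62 CPM under GH (median 1.48) and from 0.745 to 1.59 CPM under SI (median 1.08). The 4 SI males 38, 8, 25 and 39 lay below the lowest GH male, and the other 3 lay within the GH range. The Log2FC was -0.36 ± 0.179 (SE; interval -0.74 to 0.0162; adjusted p = 0.395, edgeR), and -0.30 ± 0.196 without animals 25, 33 and 39. Of the 5 SI males below the GH range for Mki67 and the 4 below it for Top2a, animals 25, 38 and 39 were below for both. The value for Top2a in males moved when single mice were left out. Leaving out SI animal 27 gave a Log2FC of -0.58 with an adjusted p of 0.0281 by edgeR in 14 males. That fit called 2413 genes of the whole table, where the fit of all males called 0. The call there was thus not particular to Top2a. Leaving out SI animal 38 gave a Log2FC of -0.20.

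Mki67 and Top2a showed little correlation from mouse to mouse. After the mean of each group was subtracted, their log2 CPM values had Pearson's r of -0.09 and Spearman's rho of -0.10 over 30 mice, and r of -0.08 without animals 25, 33 and 39. Each point in such a correlation is 1 library, and both genes share its depth and its RNA quality. Both also have low counts, whose noise draws r towards 0, so these values do not show that the genes vary apart.

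The wider list of cell division genes, which holds cyclins, the replicative helicase and mitotic kinases and motors, held no call either. In females 0 of 39 genes tested were called, 20 had a higher and 19 a lower level in SI mice, and the median Log2FC was 0.02, beside 0.01 over all genes tested. The lowest p-values belonged to Hmgb2, a chromatin protein of dividing cells (Log2FC -0.30 ± 0.0981, adjusted p = 0.0924), Birc5, a mitotic regulator (-0.40 ± 0.171, adjusted p = 0.196), Ccne1, the cyclin of S phase entry (0.14 ± 0.0502, adjusted p = 0.116) and Tyms, which makes thymidylate (0.23 ± 0.0888, adjusted p = 0.146, all edgeR). In males 0 of 38 were called, 16 were higher and 22 lower, the median was -0.04 beside -0.00 over all genes tested, and the lowest p-value belonged to Anln, a scaffold of cytokinesis (-0.26 ± 0.108, adjusted p = 0.354, edgeR). Without animals 25, 33 and 39 the median was -0.04, and Anln was at -0.17 ± 0.105 (adjusted p = 0.742). Oligodendrocyte precursors also divide in the adult hippocampus. Of their 9 markers 0 were called in either sex, and their summed level ranged from 628 to 769 CPM in GH and 546 to 730 CPM in SI females, and from 587 to 679 CPM in GH and 532 to 691 CPM in SI males.

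Eomes (ENSMUSG00000032446, chromosome 9) encodes Tbr2, the T-box transcription factor of intermediate progenitors. Its total of 1206 counts was the lowest of the 9 genes, with 10 to 123 counts per library. The coefficient of variation of Eomes between mice ran from 38.8% in SI females to 55.3% in GH males. That was the highest of the 9 genes in every group except the SI males, where Eomes stood at 41.9%, Sox4 at 52.7% and Sox11 at 44.1%. In females it ranged from 0.358 to 1.27 CPM under GH (median 0.887) and from 0.364 to 1.28 CPM under SI (median 0.755). The ranges of the female groups nearly coincided, and the Log2FC was -0.07 with an SE of 0.246 (interval -0.591 to 0.447; adjusted p = 0.908, edgeR). In males it ranged from 0.551 to 2.16 CPM under GH (median 0.843) and from 0.638 to 1.95 CPM under SI (median 1.10). All 7 SI males lay within the GH range, and the Log2FC was 0.33 ± 0.376 (SE; interval -0.46 to 1.13; adjusted p = 0.72, edgeR). It was 0.29 ± 0.37 without animals 25, 33 and 39 and 0.05 with the position digit as a factor. The interval with all 15 males spans 0.727 to 2.18 times the GH level.

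Neurod1 (ENSMUSG00000034701, chromosome 2) encodes a basic helix-loop-helix factor needed for the survival and maturation of newborn granule cells, and adult granule cells also express it. In females it ranged from 11.2 to 16.9 CPM under GH (median 14.9) and from 14.1 to 19.6 CPM under SI (median 15.1). Above the highest GH female lay 3 SI females, and none lay below the lowest. The Log2FC was 0.11 ± 0.0535 (SE; interval -0.00408 to 0.222), with an unadjusted p of 0.0579 and an adjusted p of 0.267 by edgeR. In males it ranged from 14.5 to 22.1 CPM under GH (median 17.5) and from 14.1 to 21.9 CPM under SI (median 16.4), and 1 SI male, animal 39, lay below the GH range. The Log2FC was 0.02 ± 0.0822 (SE; interval -0.15 to 0.197; adjusted p = 0.932, edgeR), and 0.09 ± 0.0741 without animals 25, 33 and 39. The intervals of Neurod1 are narrow, from 0.997 to 1.17 times the GH level in females and from 0.901 to 1.15 times in males. Neurod1 lies within the gene Cerkl on the same strand over 4231 bases in the NCBIM37 annotation, and Cerkl is in the table too, so reads that the 2 genes share are uncertain.

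Neurod1 was the only one of the 9 genes called between the sexes. Among GH mice, 1 of 9 genes was called between females and males, where 6.39% of 16391 genes were. The GH females had the 11.2 to 16.9 CPM given above and the GH males 14.5 to 22.1 CPM, and the Log2FC of females relative to males was -0.25 ± 0.0656 (SE; interval -0.386 to -0.117; adjusted p = 0.0254, edgeR). The ranges overlap, and the call was lost without surrogate variables (Log2FC -0.26, adjusted p = 0.436) and in a fit without SI males 25, 33 and 39 (-0.21, adjusted p = 0.0847). Igfbpl1 had the next smallest p-value in this comparison (-0.33 ± 0.135, unadjusted p = 0.0214, adjusted p = 0.118), so that 2 of 9 genes had an unadjusted p under 0.05, against 26.5% of all genes. The test of the difference in SI effect between sexes gave its smallest p for Sox4, with females minus males at -0.19 ± 0.0926 (adjusted p = 0.678, edgeR), and the next for Top2a at 0.30 ± 0.189 (adjusted p = 0.743).

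Sox4 (ENSMUSG00000076431, chromosome 13) and Sox11 (ENSMUSG00000063632, chromosome 12) encode closely related SoxC transcription factors that switch on neuronal genes, Dcx among their known targets, in committed progenitors and immature neurons. Both had their highest levels of all 30 mice in SI males 25, 33 and 39. The bases before their start sites are shown as a description, with the same motifs in capitals. Whether these motifs have a part in the levels was not tested.
Sox4 chr13:28953700-28953849 (minus strand): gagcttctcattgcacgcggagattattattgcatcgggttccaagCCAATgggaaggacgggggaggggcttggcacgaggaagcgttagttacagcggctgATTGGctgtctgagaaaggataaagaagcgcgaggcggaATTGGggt
Sox11 chr12:27342719-27342868 (minus strand): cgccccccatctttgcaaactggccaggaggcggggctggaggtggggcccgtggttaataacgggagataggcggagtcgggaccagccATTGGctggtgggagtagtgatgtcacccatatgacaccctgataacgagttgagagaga
The Sox4 window held 3 CCAAT motifs and the Sox11 window 1, and neither held a TTTGAA. At least 2 CCAAT motifs were found in 6.02% of the 32851 windows. Windows for 8 of the 9 genes were matched by symbol, and no window of Igfbpl1 was used. The Eomes window held 2 CCAAT motifs, and the windows of Dcx, Neurod1 and Draxin held neither motif.

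In females, Sox4 ranged from 36.8 to 44.7 CPM under GH (median 38.7) and from 34.1 to 45.5 CPM under SI (median 39.4). Of the SI females, 1 lay above and 1 below the GH range. The Log2FC was -0.02 ± 0.0518 (SE; interval -0.126 to 0.0933; adjusted p = 0.903, edgeR), which bounds the SI level between 0.917 and 1.07 times the GH level. In males, Sox4 ranged from 37.9 to 44.1 CPM under GH (median 41) and from 39.6 to 132 CPM under SI (median 48.9). Animals 25, 33 and 39 held 132, 102 and 79.4 CPM, animal 38 held 48.9 CPM, and the other 3 SI males lay within the GH range. The other 27 mice of the study spanned only 34.1 to 48.9 CPM. The Log2FC in males was 0.15 ± 0.0735 (SE; interval -0.00584 to 0.304; adjusted p = 0.394, edgeR). It was 0.76 without surrogate variables (adjusted p = 0.133), 0.54 with the position digit and 0.02 ± 0.0492 without the 3 animals. Leaving out SI animal 27 alone gave 0.29 with an adjusted p of 0.0172, in a fit of 14 males that called 2413 genes where the fit of all 15 called 0.

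In females, Sox11 ranged from 15.4 to 20.6 CPM under GH (median 18.5) and from 15.7 to 25.1 CPM under SI (median 17.5), and 1 SI female, animal 52, lay above the GH range. The Log2FC was 0.04 ± 0.0697 (SE; interval -0.11 to 0.184; adjusted p = 0.823, edgeR). In males, Sox11 ranged from 18.3 to 25.6 CPM under GH (median 20.2) and from 18.4 to 48.1 CPM under SI (median 21.0). Animals 25, 33 and 39 again held the highest levels of all 30 mice, 48.1, 42.9 and 28.7 CPM, and the other 4 SI males lay between 18.4 and 21.0 CPM. The Log2FC was -0.09 ± 0.0723 (SE; interval -0.242 to 0.0634; adjusted p = 0.6, edgeR). By edgeR it was 0.44 without surrogate variables (adjusted p = 0.166) and 0.26 with the position digit, both with the 3 animals kept. Without the 3 animals it was -0.18 ± 0.0709 (unadjusted p = 0.026, adjusted p = 0.742, edgeR). The cause of the change in sign was not tested.

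The 3 libraries differed from the other males across the whole table, and the 9 genes split with them. Relative to the mean of the other 12 males, their mean log2 CPM differed by 1.30 for Sox4, 0.94 for Sox11, 0.49 for Eomes and 0.45 for Igfbpl1. It differed by -0.21 for Neurod1, -0.26 for Top2a, -0.49 for Dcx, -0.92 for Mki67 and -1.07 for Draxin. Over all 15833 genes tested in males the median difference was -0.03, and 8.9% of genes were above 1. Transcript length moved with this difference: the median was 1.10 over 872 genes with a transcript under 1000 bases and -0.66 over 2770 genes with one over 5000 bases. Dcx, Mki67, Top2a and Draxin have transcripts of 9074, 10075, 5221 and 5200 bases, and Sox4, at 4795 bases, had one of the positive differences. Igfbpl1 and Eomes, at 2864 and 3560 bases, also had positive differences, whereas Neurod1, at 2729 bases, had a negative one. For Sox11, with a positive difference, the annotated transcript has 2013 bases and the RefSeq gene span 8451. Genes with 1 exon, as annotated for Sox11, had a median difference of 0.15 over 574 genes. The part of transcript length in the values of the 9 genes was not tested.

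Igfbpl1 (ENSMUSG00000035551, chromosome 4) encodes a secreted protein of the insulin-like growth factor binding family that is found in neuroblasts and immature neurons. In females it ranged from 2.11 to 4.78 CPM under GH (median 3.73) and from 3.52 to 4.99 CPM under SI (median 3.73). The medians were equal to the third digit, 1 SI female lay above the GH range, and the Log2FC was 0.10 ± 0.122 (SE; interval -0.161 to 0.356; adjusted p = 0.713, edgeR). In males it ranged from 3.54 to 5.93 CPM under GH (median 3.97) and from 3.14 to 6.77 CPM under SI (median 4.42). Animal 39 lay above the GH range, and 2 SI males lay below it. The Log2FC was -0.04 ± 0.161 (SE; interval -0.385 to 0.296; adjusted p = 0.932, edgeR), and -0.10 ± 0.142 without animals 25, 33 and 39.

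Dcx (ENSMUSG00000031285, chromosome X) encodes doublecortin, a microtubule-binding protein of migrating neuroblasts and immature neurons and the usual marker of adult neurogenesis. In females it ranged from 7.33 to 9.84 CPM under GH (median 9.43) and from 6.81 to 10.7 CPM under SI (median 8.34). Of the SI females, 2 lay above and 2 below the GH range. The Log2FC was -0.03 ± 0.106 (SE; interval -0.252 to 0.195; adjusted p = 0.916, edgeR), or 0.84 to 1.14 times the GH level. In males it ranged from 8.05 to 12.5 CPM under GH (median 9.21) and from 6.06 to 10.9 CPM under SI (median 7.76). The 4 SI males 39, 33, 38 and 25 lay below the lowest GH male, and none lay above the highest. The Log2FC was -0.14 ± 0.125 (SE; interval -0.406 to 0.123; adjusted p = 0.633, edgeR), or 0.755 to 1.09 times the GH level, and it was -0.03 ± 0.105 without animals 25, 33 and 39. It was -0.24 without surrogate variables, -0.21 with the position digit and 0.02 with length and GC trends removed.

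Draxin (ENSMUSG00000029005, chromosome 4) encodes a secreted repulsive cue for growing axons, which binds netrin receptors. In females it ranged from 0.633 to 1.81 CPM under GH (median 1.34) and from 1.14 to 1.72 CPM under SI (median 1.37). All 8 SI females lay within the GH range, and the Log2FC was 0.08 ± 0.17 (SE; interval -0.28 to 0.44; adjusted p = 0.847, edgeR). In males it ranged from 1.02 to 1.83 CPM under GH (median 1.42) and from 0.542 to 1.52 CPM under SI (median 1.05). The 3 SI males below the GH range were animals 25, 33 and 39, at 0.636, 0.542 and 0.649 CPM. The Log2FC was -0.17 ± 0.149 (SE; interval -0.484 to 0.146; adjusted p = 0.633, edgeR), and -0.10 ± 0.197 without them. It was -0.46 without surrogate variables, -0.53 with the position digit and -0.30 with limma-voom. Draxin overlaps Mad2l2 on the opposite strand over 315 bases, and whether the counting used strand is not given in the sources used here, so reads of that stretch cannot be assigned.

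**Figure D2:**
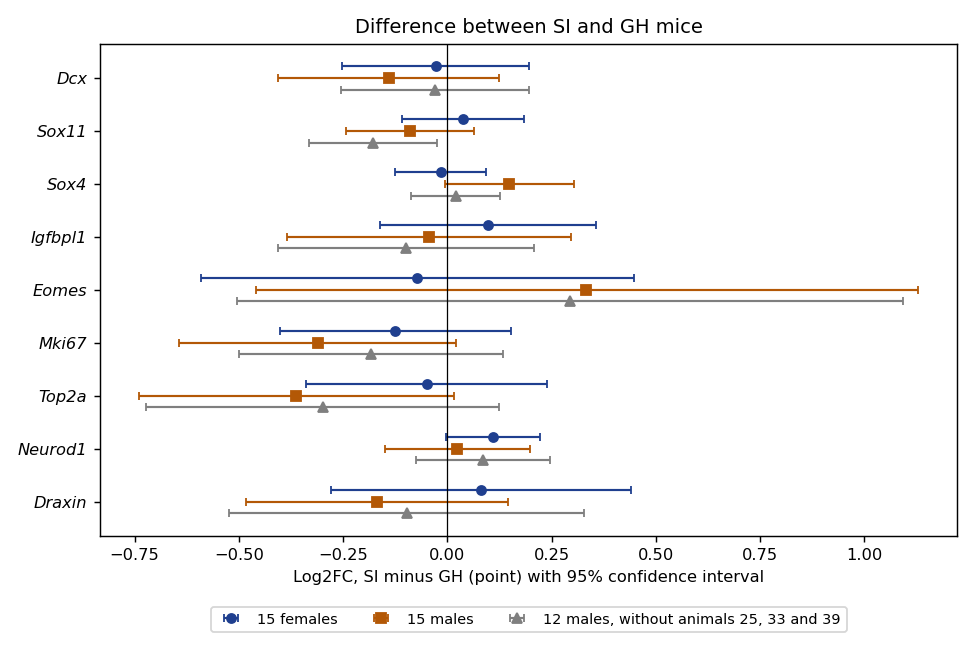
Log2FC of SI relative to GH mice for the 9 genes, as points with 95% confidence intervals from edgeR, in 15 females, 15 males and the 12 males left without animals 25, 33 and 39. All 18 intervals of the full fits cross 0, and Sox11 in the 12 males, with an adjusted p of 0.742, is the only interval that does not.

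Compared per length, the levels of the 9 genes formed a steep order. Median CPM per kilobase of transcript over the 30 mice was 9.53 for Sox11, 8.51 for Sox4, 5.91 for Neurod1, 1.37 for Igfbpl1, 0.981 for Dcx, 0.283 for Top2a, 0.255 for Draxin, 0.233 for Eomes and 0.157 for Mki67. The place of Sox11 depends on its gene model. Its annotated transcript of 2013 bases in GENCODE vM1 is shorter than the RefSeq gene span of 8451 bases, and with the latter its median was 2.27, below Neurod1. Neighbours that did not separate were Top2a and Draxin, with Top2a higher in 19 of 30 mice, and Draxin and Eomes, with Draxin higher in 15 of 30. Sox4 was above Neurod1 in 29 of 30 mice, Neurod1 above Igfbpl1 in 30, Igfbpl1 above Dcx in 28, Dcx above Top2a in 30 and Eomes above Mki67 in 26. In each of the 4 groups the medians of Sox11, Sox4, Neurod1, Igfbpl1 and Dcx were above those of Top2a and Mki67.

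The 9 genes did not vary as a block from mouse to mouse. With the mean of each group subtracted, the 36 pairs had a median Pearson's r of -0.0 over 30 mice, 16 were above 0 and 5 were above 0.5. Without animals 25, 33 and 39 the median was 0.04, and 24 pairs were above 0 and 2 above 0.5. The highest correlation was that of Sox4 with Sox11, at r of 0.88 over 30 mice, 0.92 in 15 males, 0.63 in 15 females and 0.41 in the 27 mice without the 3 animals. Mki67 and Neurod1 had r of 0.70 over 30 mice, 0.72 in females, 0.68 in males and 0.63 without the 3 animals. Sox4 ran against Dcx, with r of -0.49 over 30 mice and -0.53 without the 3 animals, and against Neurod1, at -0.44 and -0.59. Igfbpl1 and Eomes had r of 0.50 and 0.49. Pairs of Draxin with Sox4 (-0.58) and Sox11 (-0.49) came to 0.05 and 0.11 without the 3 animals. Every point is 1 library, so depth, dissection and RNA quality are shared by both genes of a pair, and these values are descriptions. The low counts of Eomes, Mki67, Top2a and Draxin can also draw their values of r towards 0, which was not tested.

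**Figure D3:**
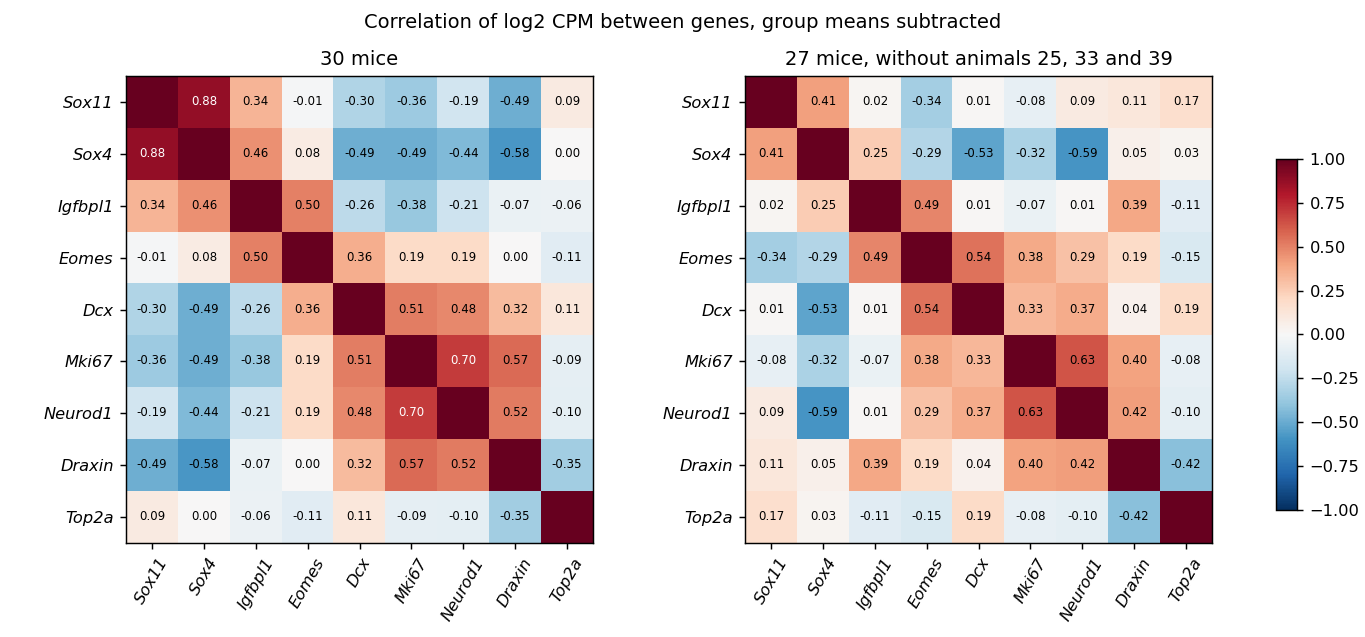
Pearson's r of log2 CPM between the 9 genes after subtraction of group means, over 30 mice on the left and over 27 mice without animals 25, 33 and 39 on the right, with colour from -1 (blue) to 1 (red). The red corner of Sox4 and Sox11 falls from 0.88 to 0.41, and Mki67 with Neurod1 stays at 0.70 and 0.63.

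Among 14116 genes with a mean log2 CPM of at least 0, those most like the mean of the 9 genes over 30 mice were Cntnap5a (r = 0.82), Ttc28 (0.79), Zfp267 (0.79), Pcdh19 (0.78) and Zbtb38 (0.77). Over the 27 mice without the 3 animals they were Zfhx4 (0.81) and Ankrd50, Asxl3, Simc1 and Sema5a (0.80 each), so none of the first 5 stayed in the list. By single gene, the most alike over 30 mice was Ythdc2 for Dcx (0.82), Cplx2 for Sox11 (0.92), Knop1 for Sox4 (0.96), Cfap161 for Igfbpl1 (0.75), Duxbl1 for Eomes (0.65), Eea1 for Mki67 (0.87), Fcho2 for Top2a (0.68) and Glb1 for Neurod1 (0.90). Draxin was most like the gene ENSMUSG00000117285, which has no symbol here (0.84). Over the 27 mice the nearest gene was another one for each of the 9, among them St6gal2 for Dcx (0.89), Eif4ebp2 for Sox11 (0.75), Mmp14 for Sox4 (0.81) and Atp11a for Mki67 (0.86). No member was the nearest gene of another member in either set of mice.

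The rest of the lineage was examined through lists of genes for the other stages, which were chosen with earlier results of these data known. All calls of list genes given below are from the females. By edgeR all of them were lost without surrogate variables and with the position digit as a factor in place of surrogate variables. In both of these settings 0 genes of the whole table were called. Limma-voom, also without surrogate variables, called 838 genes in females, and of the list calls only Pax6, Lct, Flt1 and S100b were lost there. Of 19 radial glia-like stem cell genes tested in females, 4 were called, all at a lower level in SI females, where 2.93% of all genes were called lower. An unadjusted p under 0.05 was found for 10, all lower, against 20.2% of all genes in either direction, 17 of 19 had a negative Log2FC, and the median was -0.13 beside 0.01 over all genes tested. In males 0 of 18 were called, 4 had an unadjusted p under 0.05, all lower, and the median was -0.05 beside -0.00. Without animals 25, 33 and 39 the median in males was -0.14, with 1 of 19 at an unadjusted p under 0.05.

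The 4 stem cell genes called in females were Hopx, Id4, Pax6 and Egfr. Hopx, a homeodomain cofactor of quiescent stem cells, ranged from 94.2 to 144 CPM in GH females (median 120) and from 74.4 to 119 CPM in SI females (median 98.7), and its Log2FC was -0.25 ± 0.0405 (SE; adjusted p = 0.00705, edgeR). Id4, an inhibitor of basic helix-loop-helix factors that keeps stem cells quiescent, ranged from 119 to 141 CPM (median 131) and from 88.9 to 128 CPM (median 104), with a Log2FC of -0.28 ± 0.0482 (adjusted p = 0.00728). Both genes overlapped between the groups, with lower medians in SI mice. Pax6, a transcription factor of stem cells and progenitors, had medians of 17.4 CPM under GH and 14.6 CPM under SI (Log2FC -0.23 ± 0.0566, adjusted p = 0.0368, edgeR), and Egfr, the receptor of a stem cell mitogen, had 13.9 and 11.5 CPM (-0.20 ± 0.0544, adjusted p = 0.0461). Hopx and Id4 were called in all 15 fits that left out 1 female, Pax6 in 7 and Egfr in 5. With all 4 groups in 1 fit, which called 512 genes in females, the count of stem cell genes fell from 4 to 1, with Hopx, Pax6 and Egfr lost and Id4 called. Pax6 was also lost with limma-voom and Egfr with length and GC trends removed.

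Astrocytes also express most genes of the stem cell list, and astrocyte markers moved the same way in females. Of 10 astrocyte markers, written down after the other lists had been counted, 5 were called lower in SI females, where 2.93% of all genes were, 10 of 10 had a negative Log2FC, and the median was -0.22. The share called and the size of the median were thus above those of the stem cell list. All 5 calls (Slc1a2, S100b, Slc1a3, Aldoc and Aldh1l1) were lost without SI 68, and 4 of the 5, all but Slc1a2, with the choroid plexus covariate described below. Their summed level ranged from 5140 to 6870 CPM in GH females and from 4250 to 5910 CPM in SI females. Slc1a3, the glutamate transporter that astrocytes share with the stem cells, had medians of 738 and 594 CPM (Log2FC -0.24 ± 0.0495, adjusted p = 0.014, edgeR), and Slc1a2, the transporter of mature astrocytes, had 3300 and 2440 CPM (-0.28 ± 0.0538, adjusted p = 0.0108). In GH males the medians were 651 CPM for Slc1a3 and 2770 CPM for Slc1a2, and in SI males 542 and 1630 CPM. With all 4 groups in 1 fit Slc1a2, Aldoc and S100b were lost and Slc1a3 and Aldh1l1 called. In males 0 of 10 were called, with a median of -0.19, and -0.16 without animals 25, 33 and 39. Their part in the count of the stem cell list was not tested. Choroid plexus markers had a median Log2FC of 0.20 in females with 0 of 12 called, and a summed level from 950 to 5170 CPM in GH and from 1660 to 4170 CPM in SI females. With their mean as a covariate, Hopx and Id4 were called and Pax6 and Egfr were not.

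**Figure D4:**
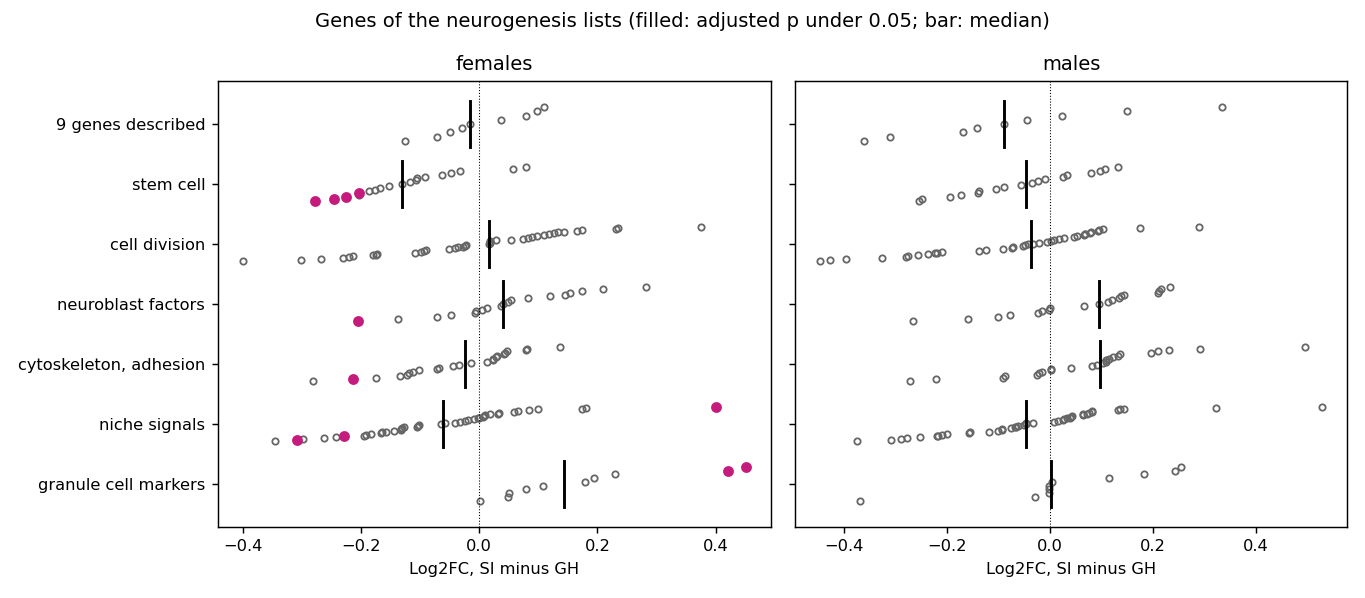
Log2FC of SI relative to GH mice for the genes of each list, 1 circle per gene tested, filled where the adjusted p (edgeR) was under 0.05, with a bar at the median, in females on the left and males on the right. In females the stem cell list sits to the left of 0 with 4 filled circles and the granule cell markers to the right with 2, and in males no circle is filled.

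Of 19 neuroblast transcription factors and early neuronal genes, 1 (Zeb1) was called in females, beside 3.89% of all genes in either direction. Zeb1, a zinc finger repressor of neuronal differentiation genes, ranged from 69.5 to 86.0 CPM in GH females (median 82.4) and from 60.5 to 75.7 CPM in SI females (median 66.9), with a Log2FC of -0.21 ± 0.0383 (adjusted p = 0.00959, edgeR). Zeb1 is also known from stem cells and astrocytes, and its call was lost without SI 68, SI 45 or GH 71 and with all 4 groups in 1 fit. Its median was 67.2 CPM in GH males and 48.8 CPM in SI males. The list's median was 0.04. The nearest to a call otherwise were Hdac2, a histone deacetylase (0.15 ± 0.0462, adjusted p = 0.0866), Neurod6 (0.21 ± 0.0753, adjusted p = 0.127) and Insm1, a factor of dividing neuronal progenitors (-0.14 ± 0.0549, adjusted p = 0.166). In males 0 of 19 were called and the median was 0.09, with Zeb1 at -0.27 ± 0.103 (adjusted p = 0.335) and Elavl4, an RNA-binding protein of young neurons, at 0.23 ± 0.0973 (adjusted p = 0.354). Without animals 25, 33 and 39 the median was 0.09, Zeb1 was at -0.15 ± 0.0967 and Elavl4 at 0.19 ± 0.0945 (both adjusted p = 0.742).

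Of 24 genes for the cytoskeleton and adhesion of the immature neuron, 1 (Tubb2b) was called in females, beside 3.89% of all genes. Tubb2b, a beta-tubulin of migrating neurons that glia express as well, ranged from 268 to 344 CPM in GH females (median 326) and from 237 to 314 CPM in SI females (median 266), with a Log2FC of -0.21 ± 0.0396 (adjusted p = 0.0095, edgeR). Its call was lost without SI 68 and was made with each of the other 14 females left out in turn. In males the medians of Tubb2b were 270 CPM under GH and 275 CPM under SI. The list's median was -0.02 in females and 0.10 in males, where 0 of 24 were called. Calb2, the calretinin of late immature neurons, was at 0.50 ± 0.158 in males (unadjusted p = 0.00609, adjusted p = 0.3), and it is also a gene of Cajal-Retzius cells, interneurons and thalamus. St8sia2, the polysialyltransferase of immature neurons, was at -0.27 ± 0.109 (adjusted p = 0.343). In the 12 males without animals 25, 33 and 39, Calb2 was at 0.34 ± 0.172 and St8sia2 at -0.14 ± 0.147 (adjusted p = 0.742 and 0.794), and the list's median was 0.07. In the males 8 of 10 thalamus markers had an unadjusted p under 0.05, all higher, with a median Log2FC of 0.53 and 0 called, and without the 3 animals 9 of 10 did, all higher, with a median of 0.47. Their summed level ranged from 112 to 158 CPM in GH males and from 108 to 295 CPM in SI males, and their part in the value of Calb2 was not tested.

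Of 42 signals and receptors of the stem cell niche, 3 were called in females, 1 higher and 2 lower, where 0.961% of all genes were called higher and 2.93% lower. Chrd, which encodes chordin, an antagonist of BMP signals, ranged from 24.4 to 39.1 CPM in GH females (median 32.0) and from 32.6 to 46.6 CPM in SI females (median 42.1), a Log2FC of 0.40 ± 0.0826 (adjusted p = 0.014, edgeR). The growth factor gene Mdk (midkine) had medians of 21.9 and 19.3 CPM (-0.31 ± 0.0636, adjusted p = 0.014), and Smo, the transducer of Hedgehog signals, had 40.8 and 35.1 CPM (-0.23 ± 0.0612, adjusted p = 0.046). In GH males the medians were 38.9 CPM for Chrd, 19.1 for Mdk and 33.6 for Smo. In SI males they were 41.9, 24.1 and 24.5 CPM. The list's median was -0.06 in females, with 16 genes lower and 3 higher at an unadjusted p under 0.05, against 20.2% of all genes in either direction. All 3 calls were lost without SI 68, a fit in which 88 genes were called. Smo was called in 6 of the 15 fits that left out 1 female, and Smo and Mdk were lost with the choroid plexus covariate. In males 0 of 42 were called, with Wnt3 at 0.53 ± 0.151 (adjusted p = 0.295), Notch1 at -0.21 ± 0.0725 (adjusted p = 0.316) and Gli3 at -0.38 ± 0.137 (adjusted p = 0.33, edgeR), and the list's median was -0.05. In the 12 males without animals 25, 33 and 39, Wnt3 was at 0.50 ± 0.147, Notch1 at -0.08 ± 0.0737 and Gli3 at -0.25 ± 0.12, and the median was -0.00.

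Of 10 markers of the mature granule cell, the end point of the lineage, all had a Log2FC of 0 or above in females, with a median of 0.14. Markers of other cell types lay on that side too: 10 of 10 endothelial, 11 of 12 choroid plexus, 9 of 10 pyramidal and 8 of 10 interneuron markers had a positive Log2FC, with medians of 0.11, 0.20, 0.06 and 0.09. Of the granule cell markers 2 were called, where 0.961% of all genes were called higher in SI females. Plk5, a polo-like kinase of mature neurons, ranged from 10.9 to 19.3 CPM in GH females (median 17.3) and from 17.4 to 27.5 CPM in SI females (median 23.4), a Log2FC of 0.45 ± 0.107 (adjusted p = 0.0282, edgeR). Lct, the lactase gene that mature granule cells express, had medians of 22.9 and 31.7 CPM (0.42 ± 0.112, adjusted p = 0.0459). GH males had medians of 24.1 CPM for Plk5 and 29.0 CPM for Lct, and SI males had 28.4 and 30.5 CPM. Both calls were lost without SI 49, SI 63, SI 68 or GH 48 and with the choroid plexus covariate, a fit in which 187 genes were called, and Lct was called in 7 of the 15 fits that left out 1 female. The defining markers Calb1 and C1ql2 had medians of 89.6 and 107 CPM in GH females and 87.8 and 132 CPM in SI females. The summed level of the 10 markers ranged from 376 to 519 CPM in GH and from 427 to 600 CPM in SI females, and from 439 to 587 CPM in GH and 387 to 603 CPM in SI males, where the median Log2FC was 0.00 and 0 were called. Without animals 25, 33 and 39 the median in males was 0.12, with 0 of 10 at an unadjusted p under 0.05.

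The neurogenesis of the neighbouring olfactory lineage and other cell types served as checks of the dissection. Of 10 genes of olfactory-type neuroblasts and the subventricular zone, 0 were called in either sex, with medians of 0.02 in females and 0.04 in males. Their summed level ranged from 188 to 258 CPM over the 30 mice, and Dlx1 and Dlx2, which interneurons also express, were counted in every mouse. In females 1 of 10 endothelial markers (Flt1, 0.14, adjusted p = 0.0496) and 1 of 10 interneuron markers (Npy, 0.15, adjusted p = 0.0351) were called, where 0.961% of all genes were called higher. Flt1 was called in 6 of the 15 fits that left out 1 female and in 3 of 10 alternatives that kept all females, and Npy in 6 and 5. None was called among the markers of microglia, oligodendrocyte precursors, ependyma, Cajal-Retzius cells, thalamus, striatum and pyramidal cells in females. In males none of any list was called, where 0% of all genes were. In SI males 8 of 10 thalamus and 3 of 8 Cajal-Retzius markers were higher at an unadjusted p under 0.05, and 0 lower. Over all genes 13% had such a p. Lhx5 of the Cajal-Retzius list was at 1.51 ± 0.325 (adjusted p = 0.295, edgeR), and 1.26 ± 0.346 without animals 25, 33 and 39. Its level was low, with medians of 0.287 CPM in GH and 0.66 CPM in SI males. Of the 8 Cajal-Retzius markers, 6 had a positive and 2 a negative Log2FC in males, with a median of 0.15. Choroid plexus markers summed to 115 to 2360 CPM in GH and 98.4 to 4240 CPM in SI males. In females all 10 ependymal markers and all 10 microglia markers had a negative Log2FC, with medians of -0.17 and -0.08, and 2 and 3 of them had an unadjusted p under 0.05. In males the ependymal median was 0.12 and that of microglia -0.01, and without animals 25, 33 and 39 they were 0.07 and -0.11. None of the defining markers of these lists was at 0 in any group.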

How the data were processed

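Per the paper's methods and the submitters' processing notes, the authors trimmed the reads of 30 hippocampal polyA libraries with Trimmomatic 0.39, quantified them with Salmon 1.8.0 and tested them with DESeq2 1.24.0. The notes name GRCm39 (mm39) as the genome build, and the annotation release is not given in the sources used here. What the authors deposited is 1 matrix of raw counts, in whole numbers, for 17477 genes whose totals reach at least 100 counts. All 30 columns were matched to mice by name, and 0 columns had no sample. Symbols were found for 16439 genes (94.1%), and a transcript length for 15964 (91.3%), in GENCODE vM1 (NCBIM37).

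The counts were tested within each sex with edgeR 4.0.16 in R 4.3.3: filterByExpr (minimum count 10, minimum total count 15), TMM, surrogate variables from svaseq of sva 3.50.0 (20 permutations, seed 1), then glmQLFit and glmQLFTest with Benjamini-Hochberg adjustment and a threshold of 0.05. Differences between sexes were tested with both sexes in 1 fit and 4 surrogate variables. Confidence intervals are at 95%. Log2 CPM used a prior count of 2. Precision is set by the counts of a gene in each library and by the spread between mice. Each mouse is 1 library. The steps were tested on simulated data.

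The 9 genes and all gene lists were chosen with earlier results of these data known, and the astrocyte list was written after the other lists were counted. The genes named are the 9, the list genes called in either sex, and up to 2 genes per list, sex and direction with the smallest p. Lists are described by counts and medians, with no set test. Alternatives were DESeq2 1.42.0, limma-voom (limma 3.58.1), DESeq2's size factors, no filter, 0 or 1 surrogate variable, the position digit of the label as a factor, removal of length and GC trends by lowess (span 0.3), a choroid plexus covariate, all groups in 1 fit, leaving out each mouse, and leaving out animals 25, 33 and 39, which for the gene lists was added after their values were seen. The limma-voom fit used quality weights and no surrogate variables, and the position digit took the place of the surrogate variables.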

Additional observations from a re-analysis of the deposited data

How the results depend on the processing

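The 9 genes gave 0 calls in females under every alternative run, but DESeq2 gave no adjusted p for Eomes, Mki67, Top2a and Draxin in either sex, so its 0 covers 5 of the 9. In males they gave 0 except in fits that left out 1 mouse, which called from 0 to 2 (2 without SI 27, Sox4 and Top2a). The 1 gene called between GH females and males was 0 without surrogate variables and 0 without animals 25, 33 and 39. Genes called in females, 624 in all, were 0 without surrogate variables, 0 with the position digit, 1263 with DESeq2, 941 with length and GC trends removed, 187 with the choroid plexus covariate, and from 88 to 1374 with 1 mouse left out (88 without SI 68, 169 without SI 63, 226 without GH 54, 272 without GH 48, 288 without SI 49, 290 without SI 73, 1062 without SI 52, 1077 without GH 78, 1374 without GH 46). Genes called in males, 0 in all, were 44 with DESeq2 and from 0 to 2413 with 1 mouse left out (2413 without SI 27). The 4 stem cell genes called lower in females were 0 without surrogate variables, 0 with the position digit, 2 with the choroid plexus covariate, 1 with all 4 groups in 1 fit, and from 2 to 5 with 1 mouse left out. The counts without surrogate variables are from edgeR, and limma-voom, also without them, called 838 genes in females. The cause of these changes was not tested.

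Of 181 values of single genes with an adjusted p under the alternatives that kept all mice or left out the 3 animals together, 161 kept their direction and side of the threshold and 20 turned sign, none of them called. In females these were Sox11 at -0.01 without surrogate variables, -0.01 with 1, -0.08 with voom and -0.05 with the position digit, Sox4 at 0.03 with voom and 0.02 with the choroid plexus covariate, Eomes at 0.09, Top2a at 0.01 and Draxin at -0.11 with voom, and Top2a at 0.02 with the covariate. In males they were Dcx at 0.02 with length and GC trends removed, Sox11 at 0.44 without surrogate variables, 0.08 with 1, 0.04 with voom, 0.26 with the position digit and 0.0017 in 1 fit of all groups, Igfbpl1 at 0.07 without surrogate variables and 0.03 with the position digit, and Neurod1 at -0.01 and -0.05 under the same settings.

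Of 270 values with 1 mouse left out, 246 kept direction and side, 22 turned sign and 2 passed the threshold. The ranges of those that turned were -0.14 to 0.02 for Dcx, -0.06 to 0.10 for Sox11, -0.05 to 0.03 for Sox4, -0.00088 to 0.18 for Igfbpl1, -0.22 to 0.04 for Eomes, -0.11 to 0.04 for Top2a and -0.06 to 0.19 for Draxin in females, and -0.12 to 0.07 for Igfbpl1, -0.17 to 0.61 for Eomes and -0.03 to 0.09 for Neurod1 in males. Eomes, Mki67, Top2a and Draxin each had fewer than 20 counts in the library where they were lowest. No paired analysis was possible because each animal number is unique and the groups share none.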
